A study of Mus musculus with 2 samples.

Results

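The 9 genes described here encode channels, transporters and a pump subunit by which the retinal pigment epithelium (RPE) moves ions, water and amino acids. They are the potassium channel Kcnj13, the chloride channels Best1 and Clcn2, the anion exchanger Slc26a7, the cotransporter Slc12a2, the sodium pump subunit Atp1b1, the amino acid transporter Slc6a20a, and the cation channels Trpm1 and Trpm3. They were chosen by symbol, and all 9 were found among the 27998 gene rows of both libraries. The data are droplet single-cell RNA counts from mice of the C57BL/6J strain, taken from RPE with choroid. An intravenous dose of 20 mg/kg sodium iodate (NaIO3), which injures RPE cells by oxidation, was given to 1 group, and phosphate-buffered saline (PBS) to the control group. Tissue was taken after 7 days, with 6 mice pooled per group, and each pool gave 1 library. The design therefore has no replicates: no difference below has a replicate check or a test, and every interval is a 95% interval that covers counting error only. Brown hexagonal cells were picked by hand after dispase digestion, so the mix of cells depends on that step too.

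The RPE is a pigmented sheet between the photoreceptors and the choroid, and it carries chloride, potassium and water out of the space around the photoreceptors. The sodium pump, made of an alpha and a beta subunit, sits on the side facing the retina and sets the ion gradients. There the sodium-potassium-chloride cotransporter brings chloride in, and inward rectifier channels let potassium back out. Chloride leaves on the choroidal side through chloride channels and anion exchangers. Trpm1 and Trpm3 each hold a microRNA gene in an intron, and Trpm1 is known as a target of the pigment cell factor MITF.

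The PBS library held 4618 barcodes and 51055592 unique molecular identifiers (UMIs), and the NaIO3 library 4058 barcodes and 51168520 UMIs. The filters left 4218 cells of the first and 3812 of the second, grouped into 34 clusters that were named "-like" from marker genes that leave out the 9 genes. RPE-like cells numbered 3057 in PBS (clusters 1 and 5) and 2120 in NaIO3 (clusters 2, 16 and 25 and 2 cells of cluster 5). All 10 RPE markers were detected in both, with Rpe65, the visual cycle isomerase, at 4059 and 3425 CPM (UMIs of the gene scaled to the same total in each group). Apart from those 2 cells, each RPE-like cluster came from 1 library, so library and cluster cannot be told apart. RPE marker clusters led by melanin genes were kept apart as pigment-led. At this resolution most such cells of both libraries had joined the RPE-like clusters, which left 341 pigment-led cells in PBS and 122 in NaIO3, and with finer clusters they separated. The finer RPE-like cells numbered 2192 in PBS and 911 in NaIO3, and the finer pigment-led cells 1206 and 1330. For this reason each gene is given in the RPE-like cells and again in both finer sets. Mitochondrial genes took a median of 7.90% (PBS) and 9.52% (NaIO3) of the counts of finer RPE-like cells, and 9.39% and 13.5% of those of finer pigment-led cells. With barcodes above 10% mitochondrial counts removed, the ratios of Trpm1, Clcn2 and Kcnj13 moved toward 1, and these values stand beside each gene. In that setting the remaining cells were also clustered and named anew, so the RPE-like cells differ by more than the cut. The 2 steps cannot be told apart there.

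RNA set free from broken cells can enter every droplet, so macrophage-like cells, which should lack RPE genes, serve as a measure of background. The 436 macrophage-like NaIO3 cells held the 10 RPE markers at a median of 10.3% of the RPE-like level (7.91% to 31.1%). In the 46 fibroblast-like NaIO3 cells this median was 37.9% (26.9% to 54.4%), so the measure depends on the class used. In turn, RPE-like cells carried RNA of other types: the summed level of the 9 macrophage markers was 191 CPM in PBS and 1255 CPM in NaIO3, and that of the 10 surface epithelium markers 231 and 1893 CPM, with none at 0. The 9 rod markers went the other way, at 863 and 314 CPM. What part these had in the results was not tested.

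Between the libraries the genes did not share a direction. Of the 9 genes, 8 had the 100 summed counts needed in RPE-like cells. Trpm1 and Clcn2 were at least 1.5-fold higher in NaIO3 and no gene was 1.5-fold lower, where 19.6% of all 11318 genes with enough counts were higher and 4.44% lower. The median log2 ratio over all 9 genes was 0.06, beside 0.16 over all genes. With trimmed-mean (TMM) scaling in place of total counts the median over all genes was -0.02, so each log2 ratio falls by that shift. Genes past 1.5-fold then split into 1419 higher and 1028 lower, in place of 2216 and 503. The counts of family members given with each gene stand beside the same shares, 19.6% higher and 4.44% lower over all genes. Under that scaling Trpm1 alone of the set was past 1.5-fold higher, and Kcnj13 and Trpm3 were past 1.5-fold lower.

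**Figure D1:**
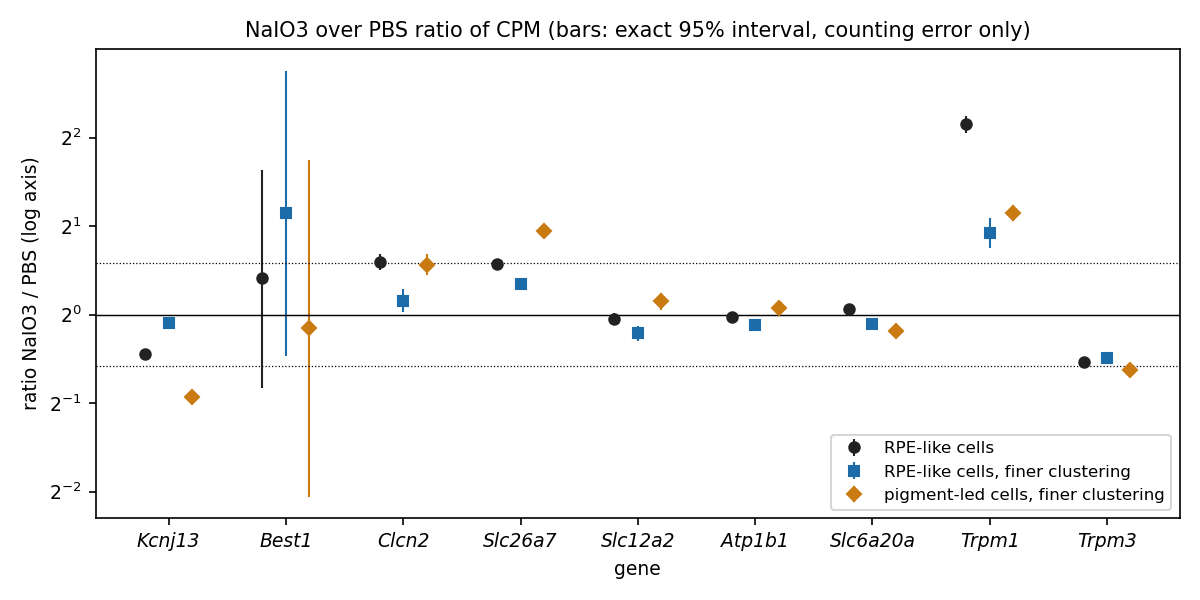
The ratio of NaIO3 to PBS CPM is shown on a log axis for each of the 9 genes, in RPE-like cells (circles), finer RPE-like cells (squares) and finer pigment-led cells (diamonds), with exact 95% intervals for counting error only and dotted lines at 1.5-fold. Trpm1 lies above 1 and Trpm3 below 1 in all 3 sets, while Kcnj13 is at 0.940 in finer RPE-like cells and 0.525 in finer pigment-led cells.

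Kcnj13 encodes Kir7.1, the main inward rectifier potassium channel of the RPE (chr1:87386363-87394729, minus strand, GRCm38, where it overlaps Gigyf2). In RPE-like cells its level was 927 CPM in PBS (35723 counts) and 682 CPM in NaIO3 (16887 counts), a ratio of 0.736 (0.722 to 0.749). With barcodes above 10% mitochondrial counts removed and the rest clustered anew, the log2 ratio was -0.08 in place of -0.44. The gap lay mainly in the pigment-led cells. In finer RPE-like cells Kcnj13 was 920 CPM in PBS and 864 CPM in NaIO3, a ratio of 0.940 (0.920 to 0.961). In finer pigment-led cells it was 905 CPM and 475 CPM, a ratio of 0.525 (0.509 to 0.541), where 3.92% of all genes were 1.5-fold lower and 25.5% higher. Within the PBS library pigment-led and RPE-like cells held about equal levels (ratio 0.985, 0.963 to 1.01), and within NaIO3 the ratio was 0.550 (0.533 to 0.567). Of RPE-like cells, 97.1% in PBS and 90.8% in NaIO3 had a Kcnj13 UMI. With each cell thinned to 4000 UMIs, which leaves out 108 PBS cells and no NaIO3 cell, the shares were 89.0% and 77.6%. In macrophage-like NaIO3 cells the thinned share was 16.3%. The median depth was 11488 UMIs per cell in RPE-like PBS, 9267 in RPE-like NaIO3 and 11782.5 in macrophage-like cells.

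The other inward rectifiers were scarce: of the 14 other listed Kcnj genes, 2 had 100 counts or more. Kcnj14 was 7.76 CPM in PBS and 2.91 CPM in NaIO3 (ratio 0.375, 0.286 to 0.486), and Kcnj8 was 6.70 and 6.58 CPM. Kcnj10, the rectifier of Muller glia, had 14 and 17 counts. The bases before the start of Kcnj13 are shown because its level differed between pigment-led and RPE-like cells of the NaIO3 library. The 250 bases (RefSeq, GRCm38.p6, chr1:87394730-87394979, minus strand) are printed with the searched motif in capitals.
Kcnj13: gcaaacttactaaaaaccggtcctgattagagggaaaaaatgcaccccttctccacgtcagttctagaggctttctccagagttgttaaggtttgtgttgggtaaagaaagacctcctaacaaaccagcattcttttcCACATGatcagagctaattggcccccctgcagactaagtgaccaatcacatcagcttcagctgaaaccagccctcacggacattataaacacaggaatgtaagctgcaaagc
The capitals mark CATGTG, read on the opposite strand as CACATG, which begins 112 bases before the start. This E-box form, one that MITF and related factors can bind, stands on 1 strand or the other in 12.3% of the 32851 promoters of this length. The other E-box form searched, CACGTG, had no match in this window. Neither did the OTX2 site TAATCC. The AP-1 site TGACTCA and, in the same search of both strands, the SP1 site GGGCGG were not found there either.

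Best1 encodes bestrophin-1, the calcium-activated chloride channel mutated in Best disease (chr19:9985174-10001633, minus strand). It was nearly undetected: 14 counts over the 3057 RPE-like PBS cells (0.363 CPM, 0.199 to 0.610) and 12 counts over the 2120 NaIO3 cells (0.485 CPM, 0.250 to 0.847). The ratio was 1.33, with an interval from 0.564 to 3.11, so no difference could be seen at this depth. The macrophage-like NaIO3 level was 1.20 CPM (0.484 to 2.48), so the RPE-like levels were not above background. Over all kept cells Best1 had 37 counts in PBS and 42 in NaIO3. Of the PBS counts, 12 came from the 56 cells of surface epithelium-like cluster 3 (14.4 CPM, 7.42 to 25.1), and the 434 NaIO3 cells of that cluster held 15 (2.75 CPM, 1.54 to 4.53). Fth1, the ferritin heavy chain gene, lies on the other strand and ends 75 bases from the end of Best1. Fth1 was at 3283 CPM in PBS and 2380 CPM in NaIO3 in RPE-like cells. How the counting treated strand and overlapping genes is not stated in the labels, and whether the neighbour bears on the Best1 counts was not tested. Best2 had no count in either set of RPE-like cells, which allows up to 0.0779 CPM in PBS and 0.121 CPM in NaIO3. Best3 had 10 and 3 counts.

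Clcn2 encodes ClC-2, a chloride channel whose loss in mice leads to photoreceptor degeneration (chr16:20702964-20717746, minus strand, overlapping Fam131a and Polr2h). It was at 54.1 CPM in RPE-like PBS cells and 81.8 CPM in NaIO3 cells, a ratio of 1.51 (1.42 to 1.61). The finer sets differed: 49.4 and 55.1 CPM in RPE-like cells (ratio 1.11, 1.02 to 1.22), and 70.7 and 105 CPM in pigment-led cells (ratio 1.48, 1.36 to 1.61). Pigment-led cells held more Clcn2 than RPE-like cells in each library, 1.43-fold in PBS (1.31 to 1.56) and 1.90-fold in NaIO3 (1.74 to 2.08). Not every pigment-led cluster did so: the 85 NaIO3 cells of finer cluster 16, which also had genes of dividing cells among their leading genes, were at 46.9 CPM. With barcodes above 10% mitochondrial counts removed and the rest clustered anew, the log2 ratio in RPE-like cells was 0.04 in place of 0.60. Of its family, 2 of 5 other measured genes were 1.5-fold higher in NaIO3 and none lower. Clcn7, the lysosomal exchanger, was 25.96 and 43.6 CPM, and Clcn3, an endosomal exchanger, 164 and 133 CPM (ratio 0.810).

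Slc26a7 encodes an anion exchanger and channel of the SLC26 family (chr4:14502430-14621805, minus strand). It was at 212 CPM in RPE-like PBS cells and 316 CPM in NaIO3 cells, a ratio of 1.49 (1.44 to 1.54), just under 1.5-fold. In finer RPE-like cells the levels were 219 and 279 CPM (ratio 1.28, 1.22 to 1.33). In finer pigment-led cells they were 191 and 366 CPM (ratio 1.92, 1.83 to 2.02). Pigment-led cells thus held less than RPE-like cells in PBS (ratio 0.871, 0.830 to 0.914) and more in NaIO3 (ratio 1.31, 1.26 to 1.37). Summed over the pigment-led cells, Kcnj13 was thus lower and Slc26a7 higher in NaIO3 than in PBS. The 27 cells of NaIO3 finer cluster 32 were an exception for Kcnj13, with 897 CPM (794 to 1011) beside 907 CPM in PBS cluster 3, while their Slc26a7 was 360 CPM. The next members of the family were far scarcer: Slc26a6 was 1.79 and 3.76 CPM (ratio 2.10), Slc26a2, the sulfate transporter, 3.56 and 5.49 CPM (ratio 1.54), and Slc26a11 6.96 and 5.78 CPM (ratio 0.830). Slc26a4 (pendrin) had 1 and 2 counts.

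Atp1b1 encodes the beta-1 subunit of the sodium pump, which the alpha subunit needs to reach the cell surface (chr1:164437109-164458355, minus strand, overlapping Nme7). Its level was 796 CPM in RPE-like PBS cells and 783 CPM in NaIO3 cells, a ratio of 0.984 (0.966 to 1.002). It was 787 and 728 CPM in finer RPE-like cells (ratio 0.925) and 855 and 899 CPM in finer pigment-led cells (ratio 1.05). The log2 ratios, -0.11 and 0.07, were both below the medians over all genes in those sets, 0.05 and 0.25. An Atp1b1 UMI was present in 98.9% of RPE-like PBS cells and 98.4% of NaIO3 cells, and thinning left 93.7% and 93.5%. Of the 9 other measured pump genes and FXYD regulators, 2 were 1.5-fold higher, Fxyd3 (1.35 and 24.3 CPM) and Fxyd5 (1.89 and 20.8 CPM). Both reached much higher levels in other cell classes, 670 and 462 CPM, and whether free RNA made up these differences was not tested. Fxyd6 was lower, at 2.80 and 1.45 CPM.

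Slc12a2 encodes NKCC1, the cotransporter by which the RPE takes up chloride from the retinal side. Its level was 145 CPM in RPE-like PBS cells and 140 CPM in NaIO3 cells, a ratio of 0.968 (0.927 to 1.01). In finer RPE-like cells it was 148 and 127 CPM (ratio 0.863, 0.816 to 0.913), and in finer pigment-led cells 133 and 147 CPM (ratio 1.11, 1.04 to 1.19). These log2 ratios, -0.21 and 0.15, were likewise below the medians over all genes, 0.05 and 0.25. Slc12a2 was not highest in the RPE: surface epithelium-like cluster 3 held 327 CPM in PBS and 163 CPM in NaIO3, and fibroblast-like cluster 9 held 226 CPM in PBS. Of the 6 other measured SLC12 genes, Slc12a9 (11.7 and 20.2 CPM) and the potassium-chloride cotransporter Slc12a4 (43.8 and 71.9 CPM, ratio 1.64, 1.53 to 1.75) were 1.5-fold higher in NaIO3, and none was 1.5-fold lower.

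Slc6a20a encodes a sodium- and chloride-coupled transporter of proline and related imino acids (chr9:123634770-123678885, minus strand, overlapping Ccr9). It was at 422 CPM in RPE-like PBS cells and 440 CPM in NaIO3 cells, a ratio of 1.04 (1.02 to 1.07) that TMM scaling turns to a log2 ratio of -0.12. The finer sets gave 392 and 365 CPM in RPE-like cells (ratio 0.932) and 565 and 499 CPM in pigment-led cells (ratio 0.883). Its difference between cell sets was larger than that between libraries, since pigment-led cells held 1.44-fold more than RPE-like cells in PBS (1.40 to 1.49) and 1.37-fold more in NaIO3 (1.32 to 1.42). Pigment-led NaIO3 finer cluster 16 was an exception, at 294 CPM (270 to 320), below the 348 to 474 CPM of the RPE-like NaIO3 clusters of 45 or more cells. Its paralog Slc6a20b, 2204 bases away, had 33 and 34 counts, and reads shared by such a pair may be split or dropped in counting. Of the 8 other measured SLC6 genes, 3 were 1.5-fold higher and none lower, where 19.6% of all genes were higher and 4.44% lower. With TMM scaling 2 were higher. The 3 higher by total counts were Slc6a8, Slc6a14 and Slc6a17 (16.8 and 27.5 CPM). The creatine transporter Slc6a8 was 2.47 and 11.9 CPM (ratio 4.82), and Slc6a14 1.58 and 6.42 CPM. Slc6a8 reached 81.2 CPM and Slc6a14 208 CPM in another class, and whether free RNA made up these differences was not tested. Slc6a15 had the lowest ratio of the family, 0.853.

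Trpm1 and Trpm3 are paired in the genome with a pair of microRNAs that share a seed. Trpm1 (chr7:64153835-64269775, plus strand) holds Mir211 in an intron, and Trpm3 (chr19:22139046-22995410, plus strand) holds Mir204 in an intron. Both mature 5p sequences (RefSeq, GRCm38.p6) are shown because the levels of their host genes differed in opposite directions here, with the seed, bases 2 to 8, in capitals.
mmu-miR-204-5p: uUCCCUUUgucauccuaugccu
mmu-miR-211-5p: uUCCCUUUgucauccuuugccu
The seed UCCCUUU is the same, and over 22 bases the only difference, counted from the 5′ end with miR-204-5p first, is A17U. The microRNAs themselves are not measured in these libraries.

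Trpm3, a calcium-permeable channel gated by heat and by steroids, was lower in NaIO3 in every set of RPE cells. Its level was 503 CPM in RPE-like PBS cells and 346 CPM in NaIO3 cells, a ratio of 0.687 (0.670 to 0.705). In finer RPE-like cells it was 510 and 364 CPM (ratio 0.714, 0.691 to 0.738), and in finer pigment-led cells 482 and 312 CPM (ratio 0.646, 0.621 to 0.673). Leaving out the 1 or 2 cells of a library that fell in a cluster of the other, the 3 finer PBS clusters lay between 483 and 510 CPM, and the 6 NaIO3 ones between 221 and 426 CPM. Clusters of 1 library are not replicates, and how many other genes part in this way was not counted. In contrast to Trpm1, the pigment-led and RPE-like cells of 1 library were close, with ratios of 0.947 in PBS and 0.857 in NaIO3.

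Trpm1, a cation channel of melanocytes and of retinal ON bipolar cells, had the highest ratio of the set. Its level was 28.7 CPM in RPE-like PBS cells (1107 counts) and 128 CPM in NaIO3 cells (3159 counts), a ratio of 4.44 (4.15 to 4.76). Over RPE-like and pigment-led cells as 1 group it was 48.2 and 149 CPM, a ratio of 3.09 (2.92 to 3.26). In finer RPE-like cells it was 20.3 and 38.6 CPM (ratio 1.90, 1.69 to 2.14), where 9.76% of all genes were 1.5-fold higher and 4.11% lower. The macrophage-like NaIO3 clusters 6 and 7 held Trpm1 at 22.0 and 23.8 CPM, so the finer RPE-like levels were not far from background. In finer pigment-led cells Trpm1 was 117 and 259 CPM (ratio 2.22, 2.08 to 2.36). The direction held in all 13 alternative settings, with log2 ratios from 0.41 to 2.55, and 12 of them were past 1.5-fold. The exception removed barcodes above 10% mitochondrial counts, clustered the rest anew and gave 0.41 in place of 2.15.

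The level of Trpm1 differed more between pigment-led and RPE-like cells than between libraries, by 5.76-fold in PBS (5.23 to 6.34) and 6.71-fold in NaIO3 (6.12 to 7.37). These clusters are led by melanin genes, so the split itself is a description. Across the finer PBS clusters Trpm1 was 17.0 CPM in cluster 1, 42.4 CPM in cluster 5 and 117 CPM in pigment-led cluster 3, while the summed level of 9 melanin genes was 1297, 1822 and 3192 CPM. In NaIO3 the RPE-like clusters held 31.8 to 58.5 CPM, and the pigment-led clusters 112, 249 and 348 CPM with melanin sums of 2227, 2730 and 4728 CPM. At a lower melanin sum, NaIO3 cluster 2 (2730 CPM) thus held more Trpm1 than PBS cluster 3 (3192 CPM). The pigment-led cells carried RPE markers: Rpe65 was 4105 CPM in PBS and 2929 CPM in NaIO3, and Kit, a gene of melanocytes, was 7.21 and 15.4 CPM, beside 5.56 and 10.8 CPM in finer RPE-like cells. Mitf, the pigment cell factor, was not higher in NaIO3, at 87.6 and 71.7 CPM in finer RPE-like cells and 84.0 and 70.7 CPM in finer pigment-led cells.

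Cells with a Trpm1 UMI made up 22.7% of RPE-like cells in PBS (21.2% to 24.2%) and 45.4% in NaIO3 (43.2% to 47.5%), and 10.4% and 27.8% after thinning to 4000 UMIs. In macrophage-like NaIO3 cells the share was 23.9%, and 8.72% after thinning, below that of RPE-like NaIO3 cells. In PBS the 74 surface epithelium-like cells had 6.76%, and 2.86% after thinning (0.348% to 9.94%), while the 16 macrophage-like cells deep enough for thinning were too few to compare (2 with a UMI). The median depths were 13043 and 4184.5 UMIs. In finer RPE-like cells the thinned shares were 8.02% in PBS and 11.7% in NaIO3, and in finer pigment-led cells 27.8% and 42.1%. Outside the RPE-like and pigment-led clusters, the 33 bipolar-like PBS cells held Trpm1 at 280 CPM (223 to 347), beside 272 CPM in pigment-led PBS cluster 4. The bipolar-like cells also held Kcnj13 at 651 CPM and Trpm3 at 422 CPM, so they carried RPE RNA, and the source of their Trpm1 was not tested.

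**Figure D2:**
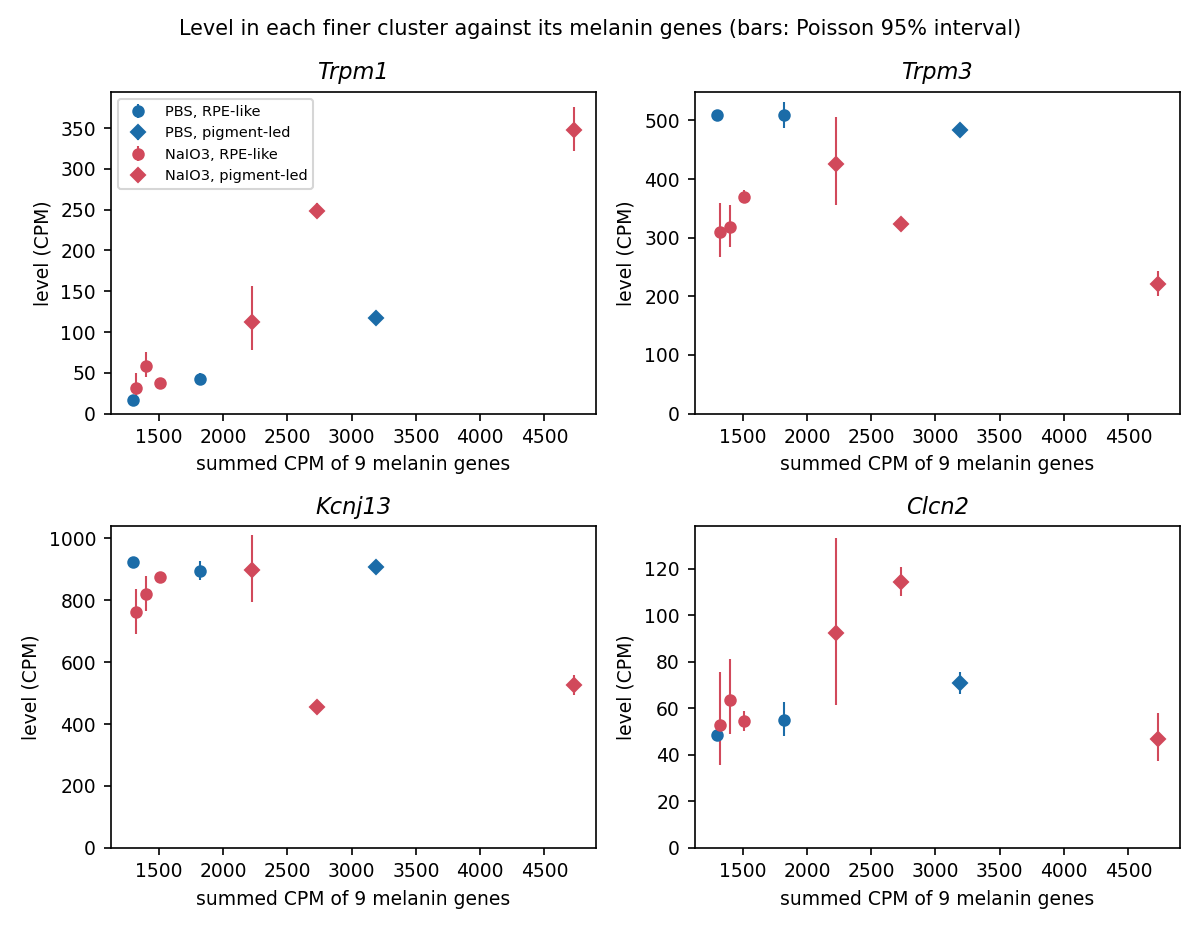
Each point is a finer cluster of RPE-like (circles) or pigment-led (diamonds) cells of 1 library (PBS blue, NaIO3 red), with the level of Trpm1, Trpm3, Kcnj13 or Clcn2 in CPM on the y axis (exact 95% Poisson interval) against the summed CPM of 9 melanin genes on the x axis. Trpm1 runs from 17.0 CPM in PBS cluster 1 to 348 CPM in NaIO3 cluster 16, while Trpm3 stays between 483 and 510 CPM in PBS and between 221 and 426 CPM in NaIO3.

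The 250 bases before 2 annotated starts of Trpm1 are shown because Trpm1 varied with the melanin genes, whose promoters are known for E-boxes. The first is chr7:64153585-64153834 and the second, 5′ of an inner start, is chr7:64185209-64185458 (RefSeq, GRCm38.p6, plus strand).
Trpm1 first start: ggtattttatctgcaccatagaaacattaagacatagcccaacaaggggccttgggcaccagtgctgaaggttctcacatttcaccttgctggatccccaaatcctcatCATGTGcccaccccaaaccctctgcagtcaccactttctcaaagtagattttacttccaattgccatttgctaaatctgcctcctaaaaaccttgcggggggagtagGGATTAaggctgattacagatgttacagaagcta
Trpm1 second start: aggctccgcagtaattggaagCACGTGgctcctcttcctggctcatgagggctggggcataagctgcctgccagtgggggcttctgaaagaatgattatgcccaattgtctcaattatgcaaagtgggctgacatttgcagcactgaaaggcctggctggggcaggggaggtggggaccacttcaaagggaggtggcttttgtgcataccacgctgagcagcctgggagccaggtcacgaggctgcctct
In the first, the capitals mark CATGTG, 141 bases before the start, and TAATCC read on the opposite strand as GGATTA, 34 bases before the start. In the second they mark CACGTG, 229 bases before the start. CATGTG stands in 12.3%, TAATCC in 6.25% and CACGTG in 6.02% of all promoters of this length, and neither Trpm3 start held any of the 5 motifs. These are matches of letters, not sites.

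In the NaIO3 library, 2 clusters with no PBS cell were led by matrix genes, so PBS values cannot be given for them. Cluster 14 (89 cells, median 28731 UMIs) had Cdkn2a, the gene of the cell cycle inhibitor p16, among its leading genes with Fbln2, Tagln, Col1a1 and Fn1. By marker score it came nearest to mural cells, with summed mural and fibroblast markers at 2980 and 3169 CPM against 225 and 47.3 CPM in RPE-like NaIO3 cells, and it stays unnamed. Its Cdkn2a level was 833 CPM and its Rpe65 level 271 CPM, the latter near the background of the library. Its 10 RPE markers had a median of 9.69% of the RPE-like level, from 7.46% (Ttr) to 40.4% (Otx2). Cluster 11 (124 cells, median 23227 UMIs) was led by Cthrc1, Fbln2 and Serpina3n, with Cdkn2a at 195 CPM and Rpe65 at 252 CPM. Rpe65 was the lowest of its 10 RPE markers, at 7.36% of the RPE-like level. Their median was 15.8%, and the highest, Mfrp, stood at 100.7%, beside 31.1% in macrophage-like NaIO3 cells. Cluster 11 was set beside cluster 14 after its values were seen. The naming rule called it melanocyte-like, with a marker score of 1.11. None of those markers was among its 10 leading genes, so the name is not used here, a choice made outside the rule. Both held the matrix genes at high sums, 12524 CPM in cluster 14 and 5508 CPM in cluster 11, against 475 CPM in RPE-like NaIO3 cells. Whether these cells stem from the RPE was not tested.

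In cluster 14 all 8 genes with enough counts were at least 1.5-fold below RPE-like NaIO3 cells, where 24.7% of 10292 genes were lower, and the median log2 ratio over the 9 genes was -2.83 against 0.17 over all genes. Of the 8, Kcnj13, Slc26a7, Slc6a20a and Clcn2 were not apart from the macrophage-like level beyond counting error. The median depth was 28731 UMIs per cell in cluster 14 and 11782.5 in macrophage-like cells, so this background is not matched in depth. Kcnj13 was 45.2 CPM, 6.62% of the RPE-like level, and macrophage-like cells held 43.2 CPM, or 6.33%. Slc26a7 (32.3 CPM), Slc6a20a (41.7 CPM) and Clcn2 (11.3 CPM) stood at 10.2%, 9.46% and 13.8% of the RPE-like level, beside 11.7%, 10.1% and 11.2% in macrophage-like cells. Slc12a2 was below the macrophage-like level (26.5 and 38.4 CPM, ratio 0.690, 0.518 to 0.909). Best1 had 2 counts.

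Of the set, Atp1b1 stood furthest above the macrophage-like level in cluster 14. It was 367 CPM, 46.8% of the RPE-like level, against 89.5 CPM in macrophage-like cells, a ratio of 4.10 (3.68 to 4.57). Its highest level in the macrophage-like, surface epithelium-like and fibroblast-like sets of either library was 359 CPM, close to that of cluster 14. After thinning, 67.4% of the 89 cells had an Atp1b1 UMI, against 31.4% of macrophage-like cells. Among genes with enough counts, 47.7% were 1.5-fold higher in cluster 14 than in macrophage-like cells, so that step alone sets nothing apart. Trpm1 (33.9 CPM, 1.49 times, 1.12 to 1.97) and Trpm3 (46.3 CPM, 1.37 times, 1.08 to 1.73) lay slightly above the macrophage-like level. The direction of Atp1b1 against RPE-like cells turned in 4 of 11 alternative settings, and that of Trpm1 in 1. In these the group was a new cluster overlapping cluster 14 most, or clusters 11 and 14 merged.

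Cluster 11 held higher levels of the set than cluster 14 did, with 1 of 8 genes 1.5-fold above RPE-like cells and 6 below, where 18.4% of all genes were below. Atp1b1 was 1231 CPM there, 1.57 times the RPE-like level (1.52 to 1.63), with a UMI in all 124 cells, and 29.8% of all genes were 1.5-fold higher. Trpm1 was 99.0 CPM (77.6% of the RPE-like level), Slc12a2 70.9 CPM (50.5%), Slc26a7 120 CPM (38.1%) and Trpm3 105 CPM (30.2%). Against macrophage-like cells these were higher by 13.8-fold for Atp1b1, 4.36-fold for Trpm1, 3.27-fold for Slc26a7, 3.10-fold for Trpm3 and 1.85-fold for Slc12a2, where 49.3% of all genes were 1.5-fold higher. Kcnj13 (82.2 CPM, 12.1%) and Slc6a20a (55.9 CPM, 12.7%) were at 1.90-fold and 1.26-fold of the macrophage-like level. The highest level in the macrophage-like, surface epithelium-like and fibroblast-like sets of either library was below cluster 11 for Atp1b1 (359 CPM) and Trpm1 (73.8 CPM). It was above cluster 11 for Kcnj13 (290 CPM), Slc12a2 (271 CPM), Slc6a20a (176 CPM), Trpm3 (173 CPM) and Slc26a7 (128 CPM). Clcn2 reached 28.6 CPM there, beside 18.2 CPM in cluster 11. The 9 melanin genes summed to 1751 CPM in cluster 11 and 390 CPM in cluster 14, beside 2022 CPM in RPE-like NaIO3 cells. Cluster 11 thus held more melanin RNA and more Trpm1, but it was also higher for the other genes of the set with enough counts.

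**Figure D3:**
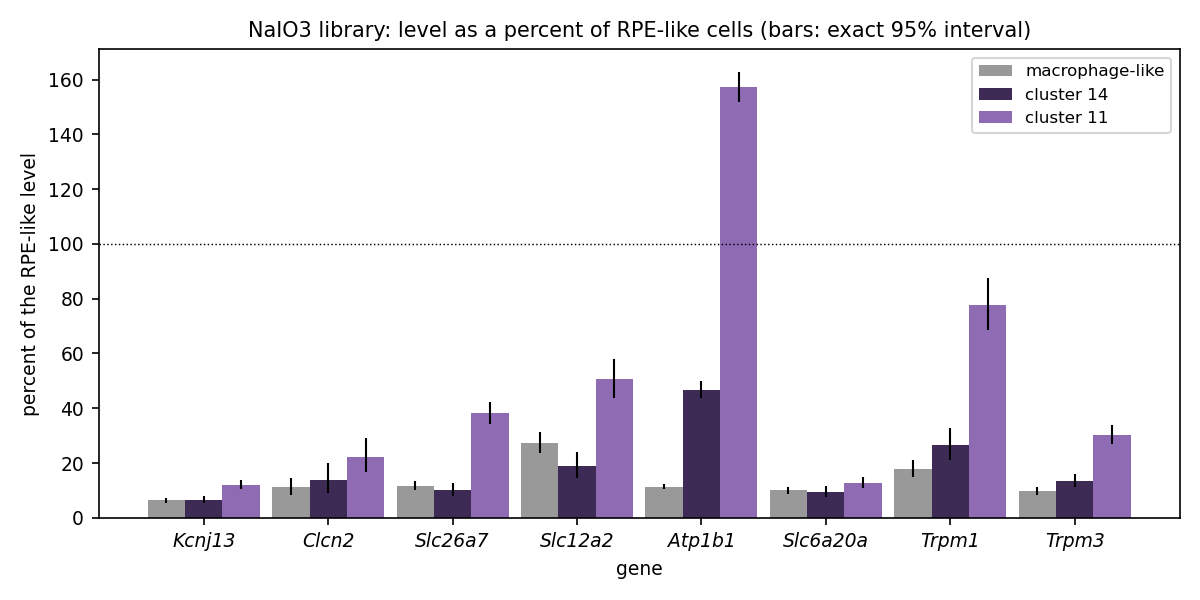
Bars give the level in macrophage-like cells (grey), cluster 14 (dark) and cluster 11 (violet) of the NaIO3 library as a percent of the RPE-like level in that library, for the 8 genes with enough counts, with exact 95% intervals and a dotted line at 100 percent. Kcnj13 and Slc6a20a are at most 12.7% in all 3, while Atp1b1 reaches 46.8% in cluster 14 and 157% in cluster 11.

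**Figure D4:**
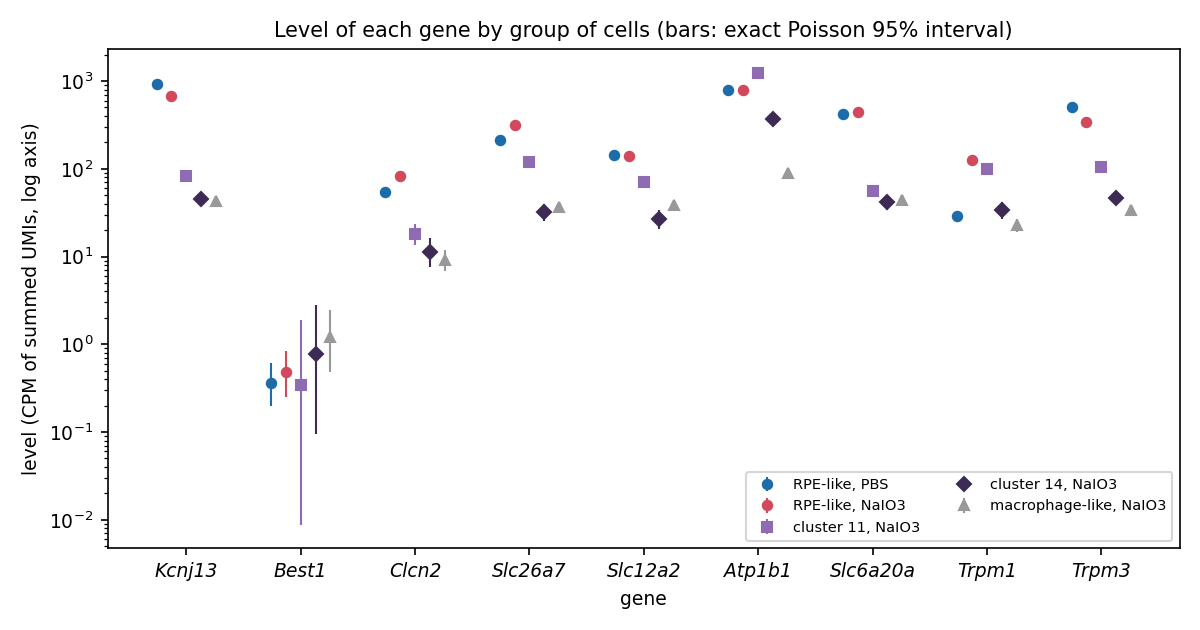
The level of each of the 9 genes in CPM (log axis, exact 95% Poisson interval) is shown in RPE-like cells of PBS and NaIO3, clusters 11 and 14, and macrophage-like cells. Best1 lies near 1 CPM or below in all 5 groups, and for Kcnj13 the RPE-like levels of 927 and 682 CPM stand above 82.2, 45.2 and 43.2 CPM in the others.

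The order of levels over the 18 clusters of 50 or more cells (split by library) separated the set into patterns. Kcnj13 was highest in RPE-like PBS cluster 1 (933 CPM), ahead of RPE-like PBS cluster 5 (872 CPM) and the interferon-led RPE-like NaIO3 cluster 16 (842 CPM), whose intervals overlap. Trpm3 was highest in RPE-like PBS clusters 5 and 1 (508 and 502 CPM, not apart beyond counting error), and Slc6a20a in pigment-led PBS cluster 4 (672 CPM). Slc26a7 and Trpm1 were highest in pigment-led NaIO3 cluster 13 (408 and 436 CPM), and Atp1b1 in clusters 11 and 13 (1231 and 1223 CPM, not apart beyond counting error). Cluster 13 also had genes of dividing cells, such as Top2a and Birc5, among its leading genes. The Pearson correlation of log2 levels was 0.97 between Kcnj13 and Trpm3, 0.55 between Trpm1 and Trpm3 and 0.07 between Slc12a2 and Trpm1. These are descriptions over 18 clusters that share libraries, depth and free RNA.

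By the same measure over 11892 genes, the nearest patterns to Kcnj13 were Ermn (0.99), Rgr, a visual cycle opsin (0.99), and Ttr, transthyretin (0.99). Trpm3 was nearest to Rsph10b, Tmem56 and Tmem98 (0.99 each), and Slc6a20a to Itgb8, the opsin Rrh and the lactate transporter Slc16a8 (0.99 each). Clcn2 was nearest to Trf, transferrin, Nid2 and Prkcq (0.97 each), and Slc26a7 to Agpat3 (0.97), C330021F23Rik (0.96) and Msi1 (0.96). Atp1b1 was nearest to the keratin Krt18 (0.98), Wdr6 (0.97) and the RPE factor Otx2 (0.97). Trpm1 was nearest to the melanin enzyme gene Tyrp1 (0.91), Hap1 (0.90) and Gm128 (0.90), and Slc12a2 to Yod1 (0.91), Adamtsl4 (0.89) and Wdr47 (0.84). Best1 had too few counts for this comparison.

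The other transport genes around the set were counted in the same way. Of the 34 measured family members outside the set, 11 were 1.5-fold higher and 2 lower, where 19.6% of all genes were higher and 4.44% lower, with a median log2 ratio of 0.42 beside 0.16 over all genes. With TMM scaling 7 were higher and 2 lower, and the median was 0.23 beside -0.02. Of 38 further measured RPE transport genes, 11 were higher and 1 lower, beside the same shares, with a median of 0.30. With TMM scaling 6 were higher and 2 lower, and the median was 0.11. The highest of these was P2ry2, a purinergic receptor (0.727 and 4.08 CPM, ratio 5.61), and the lowest Cacnb2, a calcium channel subunit (3.04 and 1.33 CPM, ratio 0.439). P2ry2 reached 86.2 CPM in another class. Trpm7, the third TRPM gene with enough counts, was 47.2 and 54.9 CPM (ratio 1.16, 1.08 to 1.25).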

How the data were processed

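Each deposited matrix holds raw UMI counts (genes by barcodes), made by the authors with Cell Ranger 3.0.2 and the mm10 build, per the submitters' processing notes, with no scaling. Libraries were grouped by treatment from the labels. Barcodes with under 500 genes or over 25% mitochondrial counts were removed (231 in PBS, 114 in NaIO3), then the highest doublet scores of Scrublet in scanpy 1.11.5, 0.8% for each 1000 barcodes (171 and 132), since its own threshold marked 0 and 8. The libraries share 24 barcode sequences, 21 after the filters. Both were clustered together on 2000 variable genes, which hold 1 of the 9 genes, 30 principal components, 15 neighbours and Leiden resolution 1 (leidenalg 0.10.2); finer clusters used resolution 2. A cluster was named from markers with a mean log2 fold of at least 1 (5 CPM added), 3 markers at 2-fold and no other class ahead among its 10 leading genes. The cluster called 14 was the unnamed one of 50 or more cells with the highest Cdkn2a.

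Counts were summed over the cells of a group and given as CPM with exact Poisson intervals; ratios have exact conditional binomial and shares Clopper-Pearson intervals, all at 95%. Log2 ratios had 0.5 counts added. A gene needed 100 summed counts and a ratio of 1.5 in either direction to be counted. With 1 library per group no test was made. The interval code was tested on simulated counts. TMM factors came from edgeR 4.0.16. Named genes are the 9, the highest and lowest of each list, fixed partners and paralogs, and the 3 most alike genes by Pearson correlation over clusters of 50 or more cells, for genes with 200 counts; Slc26a2, Clcn7, Fxyd5, Slc6a14, Slc6a17, Best3 and the cluster 11 values were added after values were seen. Some genes that this rule names are not reported here. The genes, lists and rules were chosen with earlier results of these data known. Coordinates come from GENCODE M21 (GRCm38) and sequences from RefSeq, whose promoter table held 7 of the 9 genes.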

Additional observations from a re-analysis of the deposited data

Results flagged for a closer look

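Slc12a2 and Atp1b1 stood out because their NaIO3 over PBS ratios lay on opposite sides of 1 in the 2 sets of finer cells, a difference that was not tested, with 1 library per group. For Slc12a2 the ratio was 0.863 in RPE-like and 1.11 in pigment-led cells. For Atp1b1 it was 0.925 in RPE-like and 1.05 in pigment-led cells. The median log2 ratio over all genes differed between these sets too, at 0.05 and 0.25. The log2 ratios of Slc12a2 (-0.21 and 0.15) and of Atp1b1 (-0.11 and 0.07) were below it in both sets, so relative to all genes neither gene changed direction.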

How the results depend on the processing

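The count of genes past 1.5-fold between the libraries, 2 in the reported setting, was 1 with at most 10% mitochondrial counts, 5 with the mean of the CPM of each cell and 4 with free RNA removed (18.1% of RPE-like NaIO3 counts and 24.6% of RPE-like PBS counts estimated as free). The median log2 ratio of the 9 genes, 0.06, was 0.000640 at Leiden resolution 0.5, -0.0891 at resolution 2, -0.0315 with each library clustered alone, 0.0052 with the 9 genes left out of the clustering, -0.0776 with at most 10% mitochondrial counts, 0.17 with free RNA removed, -0.12 with TMM scaling and 0.0120 with pigment-led cells added. The median of cluster 14 over RPE-like cells was -2.83, and -4.14 with free RNA removed. In each alternative clustering the RPE-like cells were named anew. The new cluster overlapping cluster 14 most took its place, so its cells can differ. The median was then -2.004 at resolution 0.5, -2.26 at resolution 2, -2.02 without doublet removal and -1.96 with at most 10% mitochondrial counts. It was -1.995 with clusters 11 and 14 merged, a setting chosen after seeing the data, as were the finer cell sets. For Atp1b1 the log2 ratio over RPE-like cells was -1.09 in cluster 14. In the clusters that took its place it was 0.0689 at resolution 0.5, 0.0802 without doublet removal and 0.0952 with at most 10% mitochondrial counts. With clusters 11 and 14 merged it was 0.0778. Trpm1 turned to 0.74 with at most 10% mitochondrial counts, and Best1, with 2 counts, to -0.26 against pigment-led cells. The cause was not tested. Over the 13 alternatives, the log2 ratios between libraries of Trpm3 (-0.73 to -0.40), Kcnj13 (-0.64 to -0.08), Slc26a7 (0.27 to 0.65) and Clcn2 (0.04 to 0.74) kept their sign. With TMM scaling, genes higher in NaIO3 numbered 1419 in place of 2216 over all genes, 7 in place of 11 among the 34 family members and 6 in place of 11 among the 38 further transport genes, and genes lower 1028 in place of 503 over all genes. The list counts under TMM were added after seeing the data. No paired analysis was possible because each group is 1 library. Depth limits Best1, at 14 and 12 counts.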
